A study of Homo sapiens with 9 samples.

Results

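The stress keratins KRT6A, KRT6B, KRT6C, KRT16 and KRT17 were followed in human keratinocytes treated with a pair of NRF2-activating compounds. The members were taken by gene name and are 5 of the 58676 genes in the deposited tables. All 5 passed the filter on low counts that left 16239 genes to test. The 9 RNA sequencing libraries were made from HaCaT, a spontaneously immortalised line of keratinocytes from adult human skin. The control group received 1% DMSO, the second group 250 nM CDDO-Me and the last group 10 µM PRL-295, each for 14 h and each with 3 libraries. NRF2 is the transcription factor of the antioxidant response, and the triterpenoid CDDO-Me, also called bardoxolone methyl, activates it as an electrophile. PRL-295 is given by its code name only. DMSO is listed in the labels for the control group alone, and the sources used here do not tell if the 3 libraries of a group are separate cultures. The p-values therefore measure the spread between these samples, which may be technical.

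Keratins build the intermediate filaments of epithelial cells, and each filament is made of pairs of a type I and a type II chain. KRT6A, KRT6B and KRT6C are type II chains, and KRT16 and KRT17 are type I chains with which they pair. In skin these genes are known as wound or barrier alarm keratins: they are low in resting epidermis between hair follicles, rise at wound edges and in psoriatic plaques, and are common in cultured keratinocytes. KRT17 is also known as a target of NRF2 in keratinocytes.

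The type II genes lie next to each other on chromosome 12 of hg38, on the minus strand, each with 9 exons. KRT6A (ENSG00000205420) spans 52487174 to 52493257, KRT6B (ENSG00000185479) spans 52446651 to 52452126 and KRT6C (ENSG00000170465) spans 52468516 to 52473785. KRT16 (ENSG00000186832) and KRT17 (ENSG00000128422) are neighbours on the minus strand of chromosome 17, each with 8 exons, at 41609778 to 41615899 and at 41619437 to 41624842. The KRT6 genes are near-copies: over the aligned coding sequence, KRT6A shared 97.5% of bases with KRT6B and 97.9% with KRT6C, and KRT6B shared 98.5% with KRT6C. Of all 100-base windows of the KRT6A coding sequence, 13.7% also occurred unchanged in KRT6B and 23.4% in KRT6C, so the split of reads between these 3 genes is uncertain. KRT16 and KRT17 shared 79.9% of aligned coding bases and had 0 such windows in common, whereas 4.47% of the KRT16 windows also occurred in the basal keratin KRT14.

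Libraries held 23383800 to 32942156 counted reads. CDDO-Me library 1 stood apart, with 14543 genes above 0 against 17821 to 23271 in the other 8, and with 2476 of the tested genes at 0 against 45 to 755. The libraries also differed in how expression tracked the GC content of genes: across genes, the correlation of GC content with a library's departure from the 9-library average was 0.18 to 0.25 in the DMSO libraries, -0.52 to -0.02 with CDDO-Me and -0.30 to 0.26 with PRL-295. The transcripts of the stress keratins are GC-rich, at 55.8% to 61.0% against a median of 49.2% over all tested genes, so values corrected for GC content and gene length are given beside the results they affect most. As a check of the treatments, 8 of 8 NRF2 target genes rose with CDDO-Me and 7 of 8 with PRL-295 (4.65% and 0.462% of all tested genes). HMOX1, which degrades heme, had a log2 fold change of 5.02 with CDDO-Me and 1.92 with PRL-295 (edgeR, adjusted p = 1.78e-07 and 0.000191). SRXN1, named after its value was seen, was the exception with PRL-295 (1.13, adjusted p = 0.260).

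Levels were compared between genes as FPKM, which divides reads by gene length and library total. KRT6A was the most abundant stress keratin, with 1147 ± 172 FPKM under DMSO (SD, n = 3), which ranked it 29 of 58676 genes. KRT17 followed with 452 ± 66.8 FPKM at rank 64. KRT16 reached 38.5 ± 20.0 FPKM, KRT6B 8.69 ± 4.86 FPKM and KRT6C 0.659 ± 0.281 FPKM. The order KRT6A, KRT17, KRT16, KRT6B, KRT6C was found in 9 of 9 libraries, and within each group the ranges of neighbours in that order did not overlap. It was also found in 9 of 9 libraries when reads were divided by the length of the main transcript, which is shorter than the deposited gene length for 4 of the 5 genes.

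**Figure D1:**
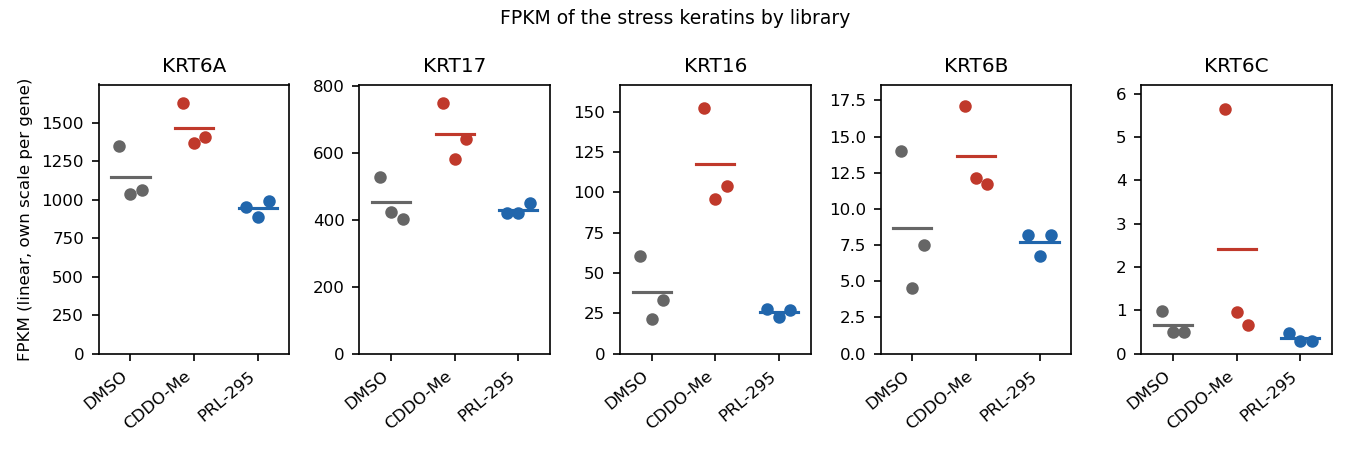
FPKM of each stress keratin (vertical axis, linear, starting at 0, with its own scale per gene) in the 3 libraries of each group, drawn left to right as libraries 1 to 3, with a bar at the group mean. KRT16 rises from a mean of 38.5 with DMSO to 117 with CDDO-Me and lies at 25.7 with PRL-295, and KRT6C is high in 1 CDDO-Me library.

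With CDDO-Me the mean level of KRT6A was 1467 ± 140 FPKM (rank 20) and that of KRT17 was 657 ± 84.8 FPKM (rank 40). KRT16 went from rank 1268 under DMSO to rank 292, with 117 ± 30.5 FPKM. With PRL-295 it stood at rank 1889 with 25.7 ± 2.57 FPKM, KRT6A at rank 37 with 943 ± 51.3 FPKM and KRT17 at rank 68 with 430 ± 17.8 FPKM. KRT6B had 13.6 ± 3.00 FPKM with CDDO-Me and 7.69 ± 0.835 FPKM with PRL-295. KRT6C, the lowest member, had 2.43 ± 2.80 and 0.355 ± 0.0984 FPKM.

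The comparison of CDDO-Me with DMSO asks how the electrophilic activator changed these keratins. KRT16 and KRT17 rose, KRT16 by 3.06-fold and KRT17 by 1.45-fold, while KRT6A, KRT6B and KRT6C did not pass the test. Thus 2 of 5 members were called, both higher (edgeR's quasi-likelihood test, adjusted p under 0.05), where 9.22% of all tested genes were called in either direction and 4.65% higher. DESeq2 called 3 of the 5, all higher, where it called 2616 of the 16239 tested genes, 1371 of them higher. At an unadjusted p under 0.05 there were 4 of the 5. No share over all tested genes was computed for the unadjusted p, here or below. The groups did not overlap, with CDDO-Me higher, for 3 of 5 members, against 15.5% of tested genes. The median log2 fold change of the members was 0.66, beside 0.0078 for all tested genes. Levels from here on are CPM, a gene's reads relative to the scaled library size without regard to gene length, which suit comparisons of 1 gene between groups.

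KRT16, a type I chain whose rise is the usual marker of activated epidermis, had levels of 147, 53.8 and 82.0 CPM across DMSO libraries 1 to 3. Across CDDO-Me libraries 1 to 3 they were 376, 235 and 255 CPM. Every CDDO-Me library lay above every DMSO library, although DMSO library 1 was well above the other 2. The log2 fold change was 1.62 ± 0.31 (SE, 95% interval 0.94 to 2.29; edgeR adjusted p = 0.0108). KRT16 passed the test under 20 of 20 other settings, with log2 fold changes of 1.33 to 2.09 and adjusted p up to 0.0488. Without CDDO-Me library 1 the log2 fold change was 1.38 (adjusted p = 0.0125). With all libraries and GC and length correction it was 2.00 (adjusted p = 0.00277).

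KRT17, the type I chain also found in hair follicles and other skin appendages, measured 1316, 1090 and 1014 CPM across DMSO libraries 1 to 3. CDDO-Me libraries 1 to 3 had 1896, 1458 and 1612 CPM. The groups did not overlap, and the gap between the lowest CDDO-Me library and the highest DMSO library was smaller than the SD of either group (157 and 222 CPM). Its log2 fold change was 0.54 ± 0.13 (SE, 95% interval 0.26 to 0.81; edgeR adjusted p = 0.0250). The call ended without DMSO library 2 (adjusted p = 0.111), DMSO library 3 (0.0942), CDDO-Me library 3 (0.0562) or PRL-295 library 3 (0.0576), and it held without CDDO-Me library 1 (log2 fold change 0.43, adjusted p = 0.0310). With GC and length correction the log2 fold change was 0.89 (adjusted p = 0.00159).

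KRT6A, the main type II partner, reached 3869, 3070 and 3077 CPM across DMSO libraries 1 to 3. In CDDO-Me libraries 1 to 3 the values were 4757, 3966 and 4069 CPM. Here too the groups did not overlap, though CDDO-Me library 2 lay only just above DMSO library 1. The log2 fold change of 0.35 ± 0.11 (SE, 95% interval 0.10 to 0.60) did not pass the edgeR test (adjusted p = 0.0778). With GC and length correction it was 0.66 and passed (adjusted p = 0.0117), so the call depends on that correction.

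KRT6B had 31.4, 10.4 and 17.0 CPM in DMSO libraries 1 to 3. The CDDO-Me libraries, in the same order, had 39.0, 27.4 and 26.4 CPM. DMSO library 1 lay above CDDO-Me libraries 2 and 3, so the groups overlapped. The log2 fold change was 0.66 ± 0.33 (SE; edgeR adjusted p = 0.238). It was 1.17 without DMSO library 1 and 0.35 without DMSO library 2, with adjusted p = 0.0562 and 0.545, and 1.00 with GC and length correction (adjusted p = 0.124).

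KRT6C, the least studied of the 3 type II copies, rested on few reads, with 69, 47 and 46 counts in DMSO libraries 1 to 3. The CDDO-Me libraries, in the same order, had 522, 81 and 45 counts. In CPM these were 2.80, 1.44 and 1.44 with DMSO and 16.3, 2.75 and 1.91 with CDDO-Me. A single library, CDDO-Me library 1, carried the difference, and the other 2 CDDO-Me libraries lay below DMSO library 1. The log2 fold change was 1.89 ± 0.72 (SE; edgeR adjusted p = 0.125), and 0.31 without CDDO-Me library 1 (adjusted p = 0.697). DESeq2 called KRT6C (adjusted p = 0.0438).

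The comparison of PRL-295 with DMSO asks the same of the second compound. None of the 5 stress keratins was called in either direction by edgeR, where 0.684% of tested genes were called. DESeq2 also called 0 of the 5, where it called 603 of the 16239 tested genes. At an unadjusted p under 0.05 there was 1 of the 5, KRT6A. All 5 fitted log2 fold changes were below 0, but those of KRT17 and KRT6B turned positive under other settings. For 2 of 5 members, KRT6A and KRT6C, the groups did not overlap, with PRL-295 lower, against 13.7% of tested genes. The median log2 fold change of the members was -0.25, beside -0.012 for all tested genes.

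KRT6A stood at 2778, 2686 and 2940 CPM in PRL-295 libraries 1 to 3, all below the lowest DMSO library at 3070 CPM. The log2 fold change was -0.25 ± 0.11 (SE, 95% interval -0.51 to -0.0015; edgeR adjusted p = 0.385), and it was -0.13 without DMSO library 1 and -0.12 with GC and length correction. KRT17 stood at 1065, 1098 and 1159 CPM, inside the DMSO range of 1014 to 1316. Its log2 fold change was -0.04 ± 0.12 (SE, edgeR adjusted p = 0.950). The interval of that difference, -0.32 to 0.23, bounds a change that was not detected.

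KRT16 had 67.8, 58.0 and 67.4 CPM in PRL-295 libraries 1 to 3, within the DMSO range of 53.8 to 147. The log2 fold change was -0.55 ± 0.30 (SE, 95% interval -1.22 to 0.12; edgeR adjusted p = 0.491). DMSO library 1 set most of this difference: without it the log2 fold change was -0.076, and with GC and length correction it was -0.33. KRT6B had 18.6, 15.9 and 18.9 CPM, also within the DMSO range, with a log2 fold change of -0.14 ± 0.33 (SE; edgeR adjusted p = 0.930), which was -0.019 with GC and length correction. KRT6C had 1.35, 0.876 and 0.889 CPM from 33, 23 and 24 counts, each below every DMSO library. Its log2 fold change was -0.86 ± 0.73 (SE, 95% interval -2.46 to 0.75; edgeR adjusted p = 0.704), and -0.47 without DMSO library 1.

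**Figure D2:**
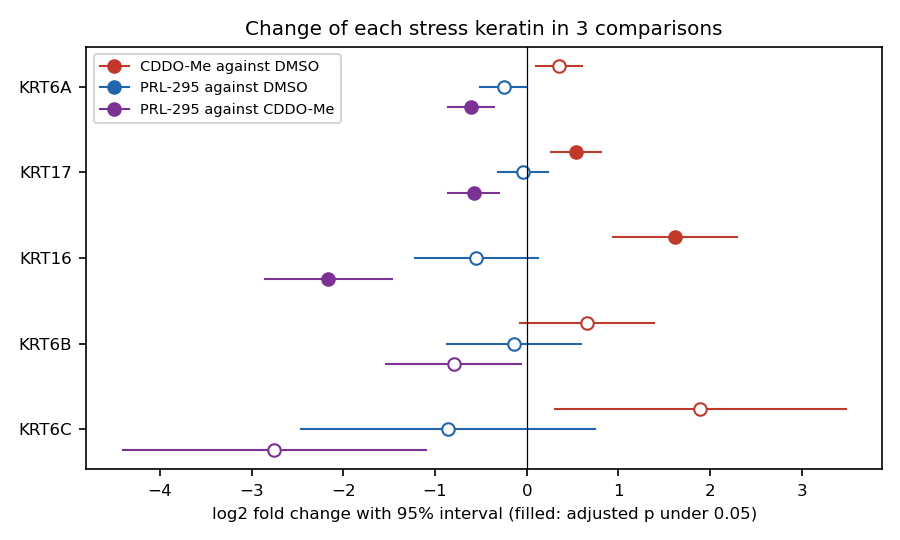
Log2 fold change (horizontal axis) of each stress keratin in the 3 comparisons, as points with 95% intervals from edgeR, filled where the adjusted p is under 0.05. KRT16 has the largest called changes, 1.62 for CDDO-Me against DMSO and -2.17 for PRL-295 against CDDO-Me, and no point is filled for PRL-295 against DMSO.

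The compounds were then set against each other directly, at doses that differ (10 µM PRL-295, 250 nM CDDO-Me). PRL-295 gave lower levels of KRT16, KRT6A and KRT17 than CDDO-Me did, for KRT16 by 4.48-fold. Of the 5 members 3 were called by edgeR, all lower, where 1.59% of tested genes were called in either direction and 0.684% lower. DESeq2 called 4 of the 5, all lower, where it called 1054 of the 16239 tested genes, 475 of them lower. All 5 had every PRL-295 library below every CDDO-Me library, against 10.2% of tested genes. The median log2 fold change of the members was -0.80, beside -0.0065 for all tested genes.

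KRT16 differed by a log2 fold change of -2.17 ± 0.31 (SE, 95% interval -2.86 to -1.47; edgeR adjusted p = 0.00743). This call held in 20 of 20 other settings, with -2.33 to -1.92 and adjusted p up to 0.0379. KRT6A differed by -0.78 with GC and length correction (adjusted p = 0.0103) and by -0.61 ± 0.11 without it (SE, edgeR adjusted p = 0.0265). Its call held in 12 of 20 other settings and ended without DMSO library 2 (adjusted p = 0.0519), CDDO-Me library 3 (0.0779) or PRL-295 library 1 (0.0774), 2 (0.0900) or 3 (0.136). KRT17 differed by -0.77 with GC and length correction (adjusted p = 0.00956) and by -0.58 ± 0.13 without it (SE, edgeR adjusted p = 0.0466). That call held in only 8 of 20 other settings, and in 2 of 9 that left out a library: it ended without DMSO library 2 (adjusted p = 0.0939) or 3 (0.0632), CDDO-Me library 1 (0.0832) or 3 (0.117), or PRL-295 library 1 (0.115), 2 (0.141) or 3 (0.200).

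KRT6B (-0.80 ± 0.33 SE, edgeR adjusted p = 0.253) and KRT6C (-2.75 ± 0.75 SE, adjusted p = 0.0994) did not pass, although their groups did not overlap. For KRT6C the log2 fold change was -1.16 without CDDO-Me library 1 (adjusted p = 0.235), and DESeq2 called the gene with all libraries (adjusted p = 0.00454). KRT6B was -0.59 without CDDO-Me library 1 (adjusted p = 0.403) and -1.02 with GC and length correction (adjusted p = 0.174).

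**Figure D3:**
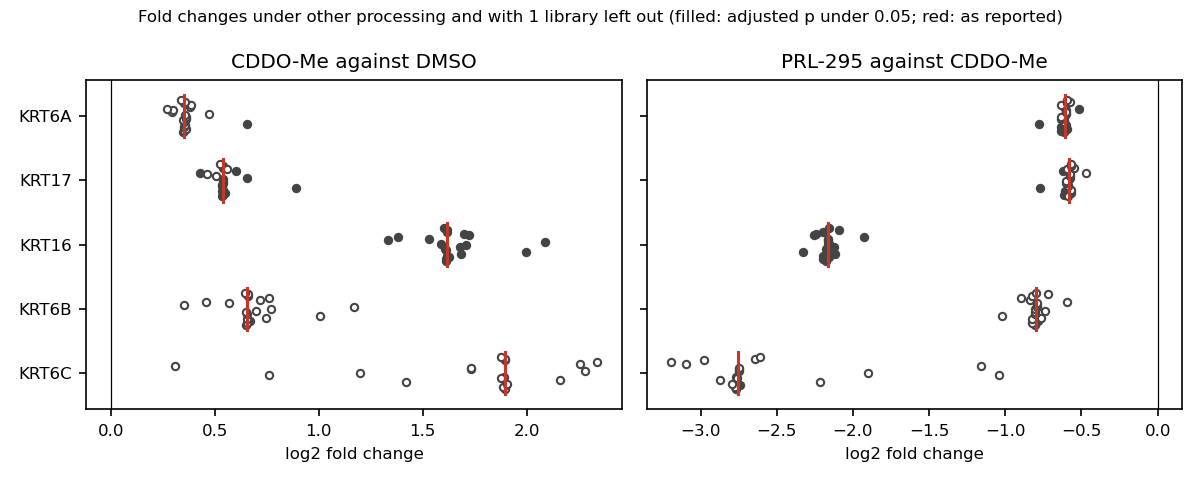
Log2 fold change (horizontal axis) of each stress keratin under other processing and with each library left out (points, filled where the adjusted p is under 0.05), with the reported value as a red line, for CDDO-Me against DMSO (left) and PRL-295 against CDDO-Me (right). All KRT16 points are filled, KRT17 and KRT6A are mixed, and KRT6C spreads from 0.31 to 2.34 on the left.

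The split of reads among the members also differed between groups. KRT16 made up 10.1%, 4.70% and 7.48% of the summed KRT16 and KRT17 reads in DMSO libraries 1 to 3. With CDDO-Me the share was 14.7% ± 1.62 (SD, n = 3; range 13.7% to 16.6%), and with PRL-295 it was 5.50% ± 0.480 (SD, n = 3; range 5.02% to 5.98%). The CDDO-Me libraries all lay above the other 6, and the PRL-295 libraries lay within the DMSO range. In FPKM, KRT17 exceeded KRT16 by 13.5 ± 5.66 times with DMSO, 5.71 ± 0.692 times with CDDO-Me and 16.9 ± 1.56 times with PRL-295 (SD, n = 3 each). Among KRT6 reads, KRT6A took 99.4% ± 0.247 with DMSO, 99.1% ± 0.248 with CDDO-Me and 99.3% ± 0.0477 with PRL-295 (SD, n = 3 each), and these ranges overlapped. The widest 95% Wilson interval of these shares in a single library reached 0.321 percentage points to either side, which covers counting error only. An exact two-sided permutation test of 3 libraries against 3 cannot go below p = 0.1, so these shares are given without a test.

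Together the stress keratins took 21.6% ± 1.75 of all keratin reads with DMSO, 27.5% ± 1.15 with CDDO-Me and 23.9% ± 0.956 with PRL-295 (SD, n = 3 each). Every CDDO-Me library, at 26.5% to 28.7%, lay above every library of the other groups, whose ranges of 20.4% to 23.6% and 22.8% to 24.5% overlapped. Without CDDO-Me library 1 the CDDO-Me mean was 26.9%. Of all counted reads the members took 0.462% ± 0.0729 with DMSO, 0.629% ± 0.0710 with CDDO-Me and 0.393% ± 0.0196 with PRL-295 (SD, n = 3 each). All keratins together took 2.13% ± 0.159, 2.28% ± 0.184 and 1.65% ± 0.0416 of counted reads. Every PRL-295 library, at 1.61% to 1.69%, lay below every DMSO library, at 2.03% to 2.32%. The PRL-295 share of keratin reads was therefore taken from a smaller keratin total.

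**Figure D4:**
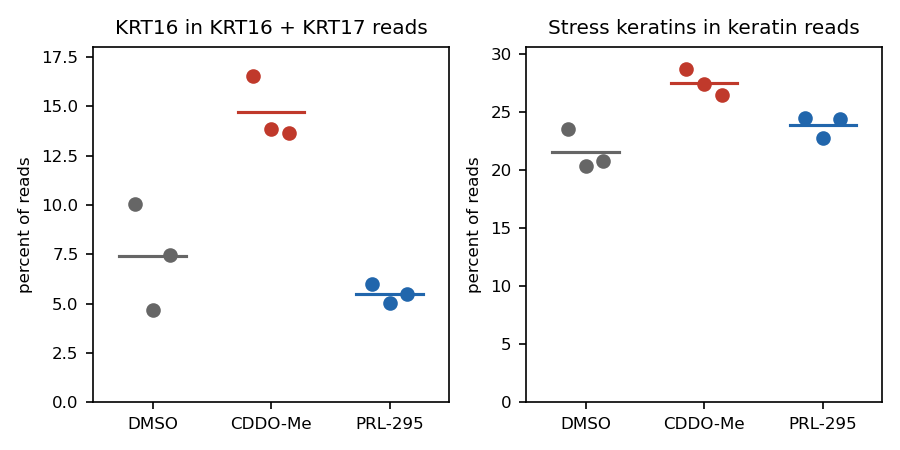
Percent of reads (vertical axis, from 0) in each library, with a bar at the group mean: KRT16 in the summed reads of KRT16 and KRT17 (left), and the 5 stress keratins in the reads of all keratin genes (right). The CDDO-Me libraries lie above all others in both panels, at 13.7% to 16.6% and 26.5% to 28.7%.

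The libraries that were high for one member were often high for the others in the DMSO and CDDO-Me groups. DMSO library 1 was the highest of its group for 5 of 5 members, and so was CDDO-Me library 1 in its group. Among the PRL-295 libraries, library 3 was highest for KRT6A, KRT6B and KRT17 and library 1 for KRT6C and KRT16. Over all 9 libraries the Pearson correlation of log2 CPM between members ran from 0.754 for KRT6B with KRT6C to 0.963 for KRT6A with KRT16 (10 pairs). After the group means were subtracted, it ran from 0.599 for KRT6B with KRT6C to 0.991 for KRT6B with KRT16. These values describe 9 libraries in which all members share depth and base composition.

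Reads given to pseudogenes named after KRT16 and KRT17 were few. The 14 such pseudogenes included 6 of KRT16, with 8 to 87 summed reads per library and at most 3.66% of the KRT16 count. The 8 of KRT17 had 0 to 12 summed reads and at most 0.0383% of the KRT17 count. KRT16P6 and KRT16P2 had enough reads to test, and neither was called in any comparison (edgeR; 0 at an unadjusted p under 0.05, and 0 by DESeq2). With CDDO-Me against DMSO their log2 fold changes were 0.30 ± 1.18 and -0.92 ± 1.21 (SE; adjusted p = 0.907 and 0.688).

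Adding the pseudogenes to their parents, and summing the KRT6 genes, left each call as it was. The reads added were few, so little change was possible, and such sums do not recover reads given to no gene. For CDDO-Me against DMSO the log2 fold changes were then 0.36 for the KRT6 sum (edgeR adjusted p = 0.0781), 1.59 for KRT16 (0.0107) and 0.54 for KRT17 (0.0249). For PRL-295 against CDDO-Me they were -0.61, -2.16 and -0.58 (adjusted p = 0.0273, 0.00697 and 0.0465). For PRL-295 against DMSO they were -0.25, -0.57 and -0.04, with adjusted p of 0.390 or more.

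The other keratins show which of these differences the family shared. Of 50 other keratin genes 17 were tested. With CDDO-Me 1 rose and 9 fell (4.65% and 4.57% of all tested genes), with a median log2 fold change of -0.81. KRT5 and KRT14, the pair of the basal epidermal layer, were the only keratins more abundant than KRT6A under DMSO, at 1305 ± 37.2 and 2151 ± 208 FPKM (SD, n = 3). KRT5 was the one that rose (0.38 ± 0.08 SE, edgeR adjusted p = 0.0146), and its call ended on leaving out any 1 of 6 libraries (adjusted p 0.0513 to 0.0813), though not CDDO-Me library 1. With GC and length correction the value of KRT5 was 0.68. KRT14 had a value of 0.30 ± 0.10 SE (adjusted p = 0.0830) and, with GC and length correction, passed at 0.69 (adjusted p = 0.00246). These values lay close to the 0.35 of KRT6A.

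Those that fell with CDDO-Me included KRT15, a keratin of basal and hair follicle stem cells (-2.97, edgeR adjusted p = 4.08e-06), KRT13 of mucosal epithelia (-2.62, 0.000899) and KRT19 of simple and follicle epithelia (-1.62, 0.000118). KRT8, the type II chain of simple epithelia, had -0.76 (adjusted p = 0.00540). KRT4, the partner of KRT13, had -2.09 (0.0377), a call that ended on leaving out any 1 of 7 libraries (adjusted p 0.0526 to 0.169) or with GC and length correction (-1.84, adjusted p = 0.0611). The 5 simple epithelium markers were KRT8, KRT18, KRT7, KRT19 and EPCAM, all but EPCAM keratins that fell with CDDO-Me. Their summed CPM was 5073 to 5886 with DMSO, 2575 to 3383 with CDDO-Me and 4167 to 4750 with PRL-295. That of 6 keratinocyte markers, which include KRT5 and KRT14, was 13760 to 14574, 17035 to 19182 and 11274 to 12091. The keratinocyte sum was thus higher with CDDO-Me and lower with PRL-295 than with DMSO. The simple epithelium sum was lower with both compounds. None of these ranges overlapped that of DMSO. The part of these marker differences in the results was not tested. In bulk RNA, fewer cells of a type and less RNA per cell cannot be told apart.

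With PRL-295 against DMSO 0 of the 17 other keratins rose and 3 fell (0.462% and 0.222% of all tested genes), and the median log2 fold change was -0.50. DESeq2 called 0 higher and 7 lower, where it called 414 higher and 189 lower of the 16239 tested genes. At an unadjusted p under 0.05 there were 10. The 3 by edgeR were KRT1, the type II chain of differentiating epidermis (-4.50, edgeR adjusted p = 0.0352), KRT13 (-1.77, 0.0300) and KRT15 (-1.09, 0.00702). The calls of KRT1 and KRT13 each ended on leaving out any 1 of 6 libraries (adjusted p 0.0593 to 0.147 and 0.0599 to 0.128), and that of KRT15 without DMSO library 1 or PRL-295 library 3 (0.0503 to 0.0709) or with GC and length correction (-0.86, adjusted p = 0.0639). KRT14 (-0.50, edgeR adjusted p = 0.0549) and KRT5 (-0.29, 0.138) did not pass. KRT14 did pass with library size scaling (adjusted p = 0.0419), without a filter (0.0245), with only the 6 libraries compared (0.0430), with DESeq2 (0.00196) and without CDDO-Me library 1 (0.0153) or 2 (0.0444). KRT5 passed with DESeq2 (adjusted p = 0.0225). With GC and length correction their values were -0.31 and -0.10.

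Between the compounds, 5 of the other keratins were higher with PRL-295 than with CDDO-Me and 3 lower (0.905% and 0.684% of all tested genes). The higher ones were KRT15 (1.88), KRT81 (1.20) and KRT7 (1.02), and, named after their values were seen, KRT19 (1.01) and KRT18 (0.65), with edgeR adjusted p of 0.000172 to 0.0211. The lower ones were KRT1 (-5.05, adjusted p = 0.0137), KRT14 (-0.80, 0.00352) and KRT5 (-0.68, 0.00239). The calls of KRT5 and KRT14 held with any library left out. That of KRT81 ended without CDDO-Me library 3, PRL-295 library 2 or 3 (adjusted p 0.0601 to 0.114), that of KRT1 without PRL-295 library 2 or 3 (0.0637 to 0.0718) and that of KRT18 without PRL-295 library 3 (0.0580).

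**Figure D5:**
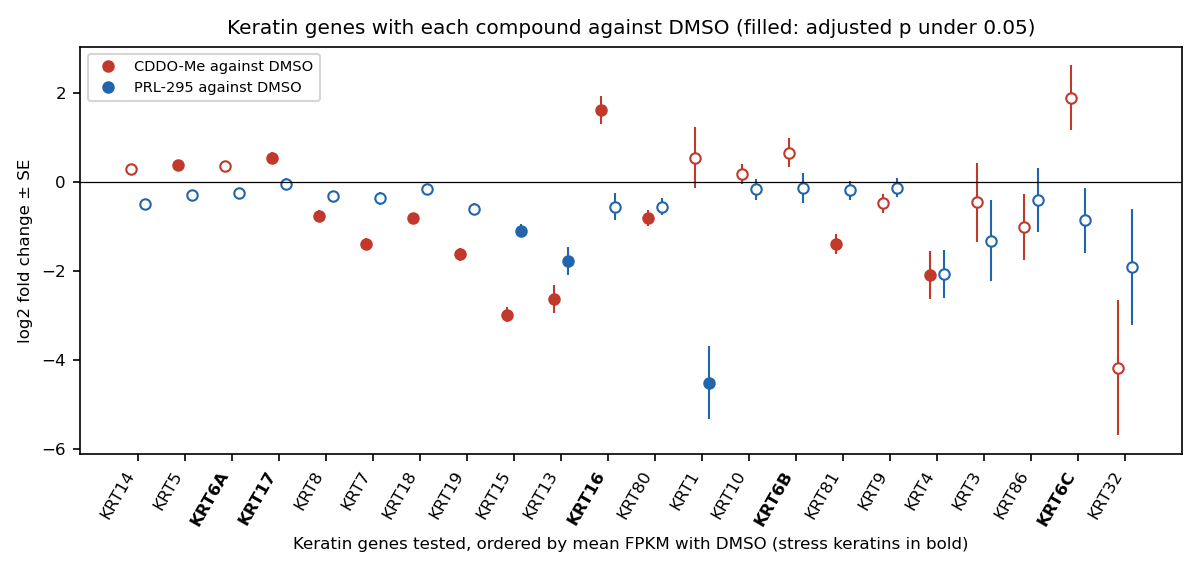
Log2 fold change (vertical axis, ± SE) of the 22 tested keratin genes, ordered left to right by mean FPKM with DMSO, for CDDO-Me (red) and PRL-295 (blue) against the shared DMSO libraries, filled where the adjusted p is under 0.05. KRT16 at 1.62, KRT17 at 0.54 and KRT5 at 0.38 are the filled points above 0, and KRT15 lies at -2.97 with CDDO-Me and -1.09 with PRL-295.

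Genes that accompany these keratins in activated epidermis were taken as a list of 24, such as antimicrobial and cornified envelope genes, of which 22 were tested. With CDDO-Me 0 rose and 3 fell by edgeR (4.65% and 4.57% of all tested genes), with a median log2 fold change of 0.07. At an unadjusted p under 0.05 there were 10 in either direction. DESeq2 called 3 higher and 4 lower, where it called 1371 higher and 1245 lower of the 16239 tested genes. IVL, the envelope protein involucrin, had -1.01 (edgeR adjusted p = 0.0294), LCN2, the iron-sequestering lipocalin, -0.89 (0.00699) and CXCL1, a neutrophil chemokine, -0.50 (0.0437). The call of IVL ended on leaving out any 1 of 4 libraries (adjusted p 0.0580 to 0.119) and that of CXCL1 on leaving out any 1 of 8 (0.0524 to 0.163). Both also ended with GC and length correction (log2 fold changes of -0.63 and -0.46, adjusted p = 0.181 and 0.0852).

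With PRL-295 against DMSO 0 of the 22 rose and 3 fell (0.462% and 0.222% of all tested genes), with a median of -0.36. In the list 8 had an unadjusted p under 0.05. DESeq2 called 0 higher and 4 lower, where it called 414 higher and 189 lower of the 16239 tested genes. The 3 that fell by edgeR were IVL (-1.42, edgeR adjusted p = 0.0312), the matrix protein TNC (-0.98, 0.0358) and the calgranulin S100A9 (-0.85, 0.0408). Their calls ended on leaving out any 1 of 6, 7 and 7 libraries (adjusted p up to 0.145, 0.194 and 0.249), and those of TNC and S100A9 with GC and length correction (-0.74 and -0.77, adjusted p = 0.109 and 0.224). Between the compounds LCN2 was higher with PRL-295 (0.79, adjusted p = 0.0306) and TGM1, the envelope crosslinking transglutaminase, and TNC were lower (-1.73 and -1.05, adjusted p = 0.00747 and 0.0172). The shares over all tested genes were 0.905% higher and 0.684% lower. The LCN2 call ended on leaving out any 1 of 7 libraries (up to 0.117) or with GC and length correction (0.50, adjusted p = 0.0639), the TNC call for 3 (up to 0.0741) and the TGM1 call without PRL-295 library 3 (0.0560).

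Among 21 growth factor and cytokine genes that are known inputs to these keratins, 4 rose and 1 fell with CDDO-Me, and their median log2 fold change was 0.34. Of all tested genes 4.65% rose and 4.57% fell by edgeR, and in the list 12 had an unadjusted p under 0.05. DESeq2 called 6 higher and 1 lower, where it called 1371 higher and 1245 lower of the 16239 tested genes. The epidermal growth factor receptor ligands EPGN (3.97, edgeR adjusted p = 0.00260), AREG (1.72, 0.00771) and TGFA (0.58, 0.0135) rose. OSMR, the oncostatin M receptor, named after its value was seen, also rose (0.57, 0.0468). IL1B, an inducer of KRT6 and KRT16 in skin, fell (-1.14, 0.0115). EPGN was low: its mean was 0.413 ± 0.283 CPM in the DMSO libraries, and CDDO-Me brought it to 6.62 ± 3.18 CPM (SD, n = 3). The calls of EPGN and AREG held with any library left out. That of TGFA ended for 2 libraries (adjusted p 0.0560 to 0.0794), that of OSMR for 7 (0.0634 to 0.172) and with GC and length correction (0.40, adjusted p = 0.239), and that of IL1B without DMSO library 2 (0.0574).

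With PRL-295 only the receptor ligand HBEGF rose (0.85, edgeR adjusted p = 0.0264), and 0 of the 21 fell. Over all tested genes 0.462% rose and 0.222% fell. The HBEGF call ended for 5 libraries (adjusted p 0.0782 to 0.172). In the list 8 had an unadjusted p under 0.05 in either direction. DESeq2 called 6 higher and 0 lower, where it called 414 higher and 189 lower of the 16239 tested genes. Between the compounds IL1B was higher with PRL-295 (1.88, edgeR adjusted p = 0.00261), opposite in direction to KRT16, KRT17 and KRT6A. It was the only one of the 21 called by edgeR, which called 1.59% of all tested genes. In the list 5 had an unadjusted p under 0.05. DESeq2 called 2 higher and 1 lower, where it called 579 higher and 475 lower of the 16239 tested genes.

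Of 24 transcription factors linked to these genes, 4 rose and 2 fell with CDDO-Me by edgeR (4.65% and 4.57% of all tested genes). Their median log2 fold change was 0.17, beside 0.0078 for all tested genes. In the list 9 had an unadjusted p under 0.05. DESeq2 called 4 higher and 3 lower, where it called 1371 higher and 1245 lower of the 16239 tested genes. NR3C1, the glucocorticoid receptor (0.91, edgeR adjusted p = 0.0141), the AP-1 subunit JUN (0.64, 0.0177) and KLF6 (0.64, 0.0131) rose, and so did TP63, the regulator of basal keratinocytes, named after its value was seen (0.60, 0.0447). RARG, the main retinoic acid receptor of epidermis, fell (-0.87, 0.00179), as did MYC, also named after its value was seen (-0.62, 0.0100). Of these 6, RARG and MYC kept their calls with any library left out. Those of NR3C1, KLF6, JUN and TP63 ended for 2, 2, 5 and 7 libraries, with adjusted p up to 0.0781, 0.0653, 0.0914 and 0.166. With GC and length correction NR3C1, TP63 and MYC lost theirs (log2 fold changes of 0.35, 0.27 and -0.36, adjusted p = 0.181, 0.422 and 0.0794).

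With PRL-295 the AP-1 subunit FOSL1 rose (0.87, edgeR adjusted p = 0.00231) and 0 of the 24 fell. Over all tested genes 0.462% rose and 0.222% fell. In the list 6 had an unadjusted p under 0.05. DESeq2 called 2 higher and 2 lower, where it called 414 higher and 189 lower of the 16239 tested genes. Against CDDO-Me, FOSL1 (0.71, 0.00694) and MYC (0.63, 0.0245) were higher with PRL-295 and KLF6 lower (-0.72, 0.0201). The shares over all tested genes were 0.905% higher and 0.684% lower. FOSL1 kept both calls with any library left out. That of MYC ended for 6 libraries (adjusted p up to 0.108) and with GC and length correction (0.44, adjusted p = 0.0671), and that of KLF6 for 4 (up to 0.127).

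Of 14 tested genes for filament partners and anchors, 2 rose and 0 fell with CDDO-Me (4.65% and 4.57% of all tested genes). Their median log2 fold change was 0.12, beside 0.0078 for all tested genes. In the list 5 had an unadjusted p under 0.05. DESeq2 called 4 higher and 0 lower, where it called 1371 higher and 1245 lower of the 16239 tested genes. SFN, the 14-3-3 protein that binds keratins in keratinocytes, had 0.58 (edgeR adjusted p = 0.00556) and DST, which anchors filaments at hemidesmosomes, had 2.03 (0.0494). The DST call ended on leaving out any 1 of 6 libraries (adjusted p 0.0691 to 0.173). With PRL-295 0 of the 14 were called by edgeR, where 0.684% of all tested genes were. Of these 14, 8 had an unadjusted p under 0.05 and DESeq2 called 0, beside 603 of all 16239 tested genes. The most abundant of them were PLEC, the linker plectin (-0.22, adjusted p = 0.789), whose sign turned with GC and length correction, and SFN (0.25, 0.313). Between the compounds DSP, the desmosomal anchor of keratins (-1.04, 0.0135), and EPPK1, which binds keratin filaments (-1.90, 0.0396), were lower with PRL-295. The share of all tested genes called lower was 0.684%. The DSP call ended without CDDO-Me library 3 (0.0561) and that of EPPK1 on leaving out any 1 of 7 libraries (up to 0.145).

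The genes whose log2 CPM followed the main stress keratins most closely over the 9 libraries were sought among 8831 non-keratin genes that averaged 10 CPM or more. For KRT6A they were SLC22A23 (Pearson r 0.979), SLC27A1 (0.973), DLGAP4 (0.969), DUOXA1 (0.961) and KIAA1161 (0.957). For KRT16 they were LTB4R, a leukotriene B4 receptor (0.982), VANGL1 (0.967), MN1 (0.967), DUOXA1 (0.952) and SLC22A23 (0.947). For KRT17 they were the cell surface proteoglycans SDC1 (0.983) and GPC1 (0.982), then SMTN (0.980), WDFY2 (0.963) and VANGL1 (0.960). KRT6A and KRT16 shared DUOXA1, the maturation factor of a dual oxidase, and SLC22A23, and KRT16 and KRT17 shared VANGL1. These correlations describe 9 libraries that also share depth, base composition and the differences between groups.

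Beside the keratinocyte and simple epithelium markers given above, markers of 4 other cell types were low. Of 6 fibroblast markers only COL1A1 was above 1 CPM in any library, and COL3A1, DCN and LUM were at 0 in all 9. Summed melanocyte markers reached 3.96 to 7.99 CPM with TYR at 0, and summed immune markers at most 0.567 CPM. Endothelial markers summed to 0.125 to 2.31 CPM with PECAM1 at 0.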

How the data were processed

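RNA was sequenced from 9 HaCaT libraries in 3 groups of 3. The authors deposited raw read counts per gene and FPKM per library, with the gene length in bases beside each gene. The submitters' processing notes name STAR 2.5, TopHat, HTSeq 0.6.1, SAMtools 0.1.18, Picard 1.111, STAR-Fusion 0.8.0, GATK, DESeq2 and edgeR, without their order, and hg38. Annotation release and strand setting are not given in the sources used here. All deposited counts were whole numbers, and the deposited FPKM equalled count over length and library total within 0.1% for 100% of values above 0.

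Counts were filtered by expression (filterByExpr), scaled by TMM and tested with edgeR 4.0.16 (R 4.3.3) quasi-likelihood fits over all 9 libraries, with Benjamini-Hochberg adjustment over 16239 genes and a threshold of 0.05. Standard errors are the log2 fold change over the square root of F. Alternatives were RLE or library-size scaling, no filter, a mean of at least 1 CPM, DESeq2 1.42.0, limma 3.58.1 on log2(FPKM + 1) and log2(FPKM + 0.1), fits of the 6 libraries compared, a replicate block, GC and length offsets (mgcv 1.9.3), summed paralogs, and leaving out each library. Scripts were tested on simulated counts with 200 changed genes. Over the 3 comparisons they recovered 6% to 14% of 1.5-fold and 38% to 40% of 2-fold changes. For 4-fold and 8-fold changes it was 74% to 80% and 90% to 94%. In the simulation small changes were thus mostly missed. It also called 10, 6 and 3 unchanged genes for CDDO-Me against DMSO, PRL-295 against DMSO and PRL-295 against CDDO-Me. Its changed genes were drawn at any level from 1 CPM up, so these shares need not hold for the abundant members. A gene that was not called may still have changed. Sample numbers were checked for pairing: 1 of 9 same-numbered pairs of samples had correlated deviations above 0.1 (range -0.198 to 0.101), so they were not treated as pairs. Low correlations cannot exclude matched cultures.

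GC content, transcripts and coding identities came from GENCODE release 29, which held all 58676 identifiers, with the same start and end for 55910. Gene names and positions are those of the deposited tables.

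The members and gene lists were chosen with earlier results of these data known. Named from each list were up to 4 called genes with the largest change per comparison, or the 2 most abundant where none was called; the 5 most abundant keratins under DMSO; and the 5 genes correlated best with KRT6A, KRT16 and KRT17. Other named genes are marked as such.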

Additional observations from a re-analysis of the deposited data

How the results depend on the processing

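Over the alternatives, the number of stress keratins called for CDDO-Me against DMSO was 2, except 4 without a filter and 3 with DESeq2 or with GC and length correction, and it was 1 to 2 with a library left out. For PRL-295 against DMSO it was 0, except 1 without a filter (KRT16, adjusted p = 0.0162), and 0 with each library left out. For PRL-295 against CDDO-Me it was 3, except 5 without a filter, 4 with DESeq2, 2 with RLE scaling, and 1 with only the 6 libraries compared or with limma at either pseudocount, and it was 1 to 3 with a library left out. A replicate block gave 2, 0 and 2 members in the 3 comparisons and lowered the calls over all genes from 1497, 111 and 258 to 864, 60 and 156. Its numbers do not mark pairs, and under it KRT17 lost its call between the compounds (adjusted p = 0.0684). With summed paralogs the 5 members are not separate genes, so no count was made. For PRL-295 against DMSO the sign of KRT17 turned to 0.11 with GC and length correction, and with a library left out its values ran from -0.11 to 0.076, the highest without DMSO library 1. For KRT6B they ran from -0.44 to 0.37, the highest again without DMSO library 1, and the sign of PLEC turned to 0.34 with GC and length correction. None of these was past the threshold, and the cause was not tested. Over all settings, the genes called ran from 400 (without DMSO library 2) to 2803 (without CDDO-Me library 1) for CDDO-Me against DMSO, from 33 (without PRL-295 library 3) to 825 (no filter) for PRL-295 against DMSO, and from 45 (the 6 libraries compared) to 1250 (no filter) between the compounds. KRT6C rested on 23 to 522 counts per library. Of 59 calls of genes named from the lists, 16 ended with only the 6 libraries compared, 13 with GC and length correction, 10 and 9 with limma at a pseudocount of 0.1 and 1, and 9 with the replicate block.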
